A study of Arabidopsis thaliana with 48 samples.

Results

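In rosette leaves of Arabidopsis mutant for the m6A writer MTA, 529 stretches of mRNA that carried an N6-methyladenosine (m6A) peak in wild-type plants, watered and droughted alike, had no peak in any library of the mutant. These lost regions were found by merging the peak intervals of all 12 m6A libraries on each strand wherever they overlapped by 1 base or more. A merged region was taken when it was held by at least 2 wild-type unstressed libraries, at least 2 wild-type drought libraries and 0 mutant libraries. They were 529 of 17699 merged regions, and 5.50% of the 9618 regions found in both wild-type regimes. The members were thus chosen by the measured peak calls of the m6A libraries, and the peak values given here describe them without a test.

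MTA is the catalytic subunit of the complex that methylates adenosines in mRNA. In plants the mark lies mainly near the stop codon and in the 3′ untranslated region, and it is read by YTH-domain proteins of the ECT family. It has been tied to transcript stability, to the choice of poly(A) site and to translation.

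The study set Col-0 (WT) beside a line labelled mta ABI3:MTA, here mta, in which MTA is supplied only from the ABI3 promoter, which is active in the embryo. Seedlings 17 days old were watered to soil capacity, after which 1 set went 12 days without water and the other stayed watered. Rosette leaves were taken for 4 assays with 3 libraries per group: mRNA-seq, pull-down with an antibody against m6A, sequencing of RNA from polysomes, and GMUCT, a protocol that ligates to 5′ monophosphates and thereby samples RNA that has lost its cap on the way to decay. The 4 groups were thus WT unstressed, WT drought, mta unstressed and mta drought. The mRNA libraries are the part of the fragmented poly(A) RNA set aside before immunoprecipitation. Polysomal RNA came from pooled gradient fractions heavier than a pair of ribosomes. Whether replicate libraries stem from different plants is not in the labels. The p-values below therefore cover only the variation among these libraries, which may be technical. Both genotypes carry the ecotype Col-0 in the labels.

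Total counts per library ran from 1504013 to 5503037 in mRNA, from 35833742 to 43032763 in polysomal RNA and from 1313457 to 12421168 in GMUCT. The m6A libraries came as lists of 7746 to 12228 peaks, and their sequencing depth is unknown. The leaf markers RBCS1A and RCA, the small subunit and the activase of Rubisco, stood at 9262 and 4846 CPM (counts relative to the scaled library total) in WT unstressed mRNA. The seed markers CRA1, CRU3 and OLEO1 had at most 1 count in a WT unstressed library, and the floral markers AP1, AP3 and AG at most 24. The highest counts of AP1, AP3 and AG were 24, 17 and 7 in WT unstressed libraries and 3, 1 and 7 in mta unstressed libraries. The meristem gene STM was at 26.8 CPM in WT unstressed and 11.0 in mta unstressed, and the root marker PYK10 at 129.9 and 195.8. The part of these markers in the results below was not tested, and in whole leaves a change in the mix of cells and a change in RNA per cell cannot be told apart.

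MTA itself (AT4G10760) carried a lost region, so the check of the line and the membership meet in 1 gene. Its mRNA stood at 17.7, 18.2 and 18.9 CPM in WT unstressed leaves and at 9.75, 6.98 and 7.40 in mta unstressed leaves. In drought the values were 26.0, 25.3 and 18.9 CPM in WT and 10.6, 8.26 and 9.79 in mta. Every mta library lay below every WT library in both regimes, and MTA mRNA fell by 1.16 ± 0.19 on the log2 scale (SE, n = 3 per group) in unstressed leaves (adjusted p = 9.6e-05) and by 1.28 ± 0.18 in drought (adjusted p = 3.07e-06, edgeR's quasi-likelihood test with Benjamini-Hochberg adjustment over all genes). Reads of the transgene and of the resident gene cannot be told apart in these counts. The lost region of MTA lay at chr4:6619827-6620034 on the minus strand (TAIR10), 56 bases from the end of the gene, and was held by all 6 WT libraries at folds of 6.63, 7.76 and 5.81 unstressed and 3.72, 4.48 and 7.68 in drought. A second region of the same gene, chr4:6623056-6623207, sat 8.47% of the way along the span and was held by 1 WT unstressed, 3 mta unstressed and 1 mta drought library. The region near the start was thus held by more mta than WT libraries, and the one at the end by WT libraries alone. MTA is the mutated gene, and its mRNA was lower in mta. Whether its missing peak goes with less m6A, with less mRNA or with the mutated locus itself cannot be told apart here.

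The lost regions were mostly peaks of middle to low rank in the WT lists. In the 6 WT libraries their median fold enrichment, the value of the authors' peak caller at the summit, lay between 4.84 and 5.61. Ranked within each library's own list, their median percentile lay between 34.7 and 44.6, where the 6720 regions held by at least 2 libraries in all 4 groups (kept regions) had medians between 56.9 and 61.6. When the 9618 regions of both WT regimes were put in 5 bins of equal size by fold rank, 7.69%, 10.1%, 6.96%, 2.39% and 0.364% were lost from the lowest to the highest bin. Strong peaks were rarely members: 7 of the 1924 regions in the top bin were lost. The share lost also varied with the mRNA count of the gene, at 7.59% in the bin with the fewest counts and 4.46% in the bin with the most.

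**Figure D1:**
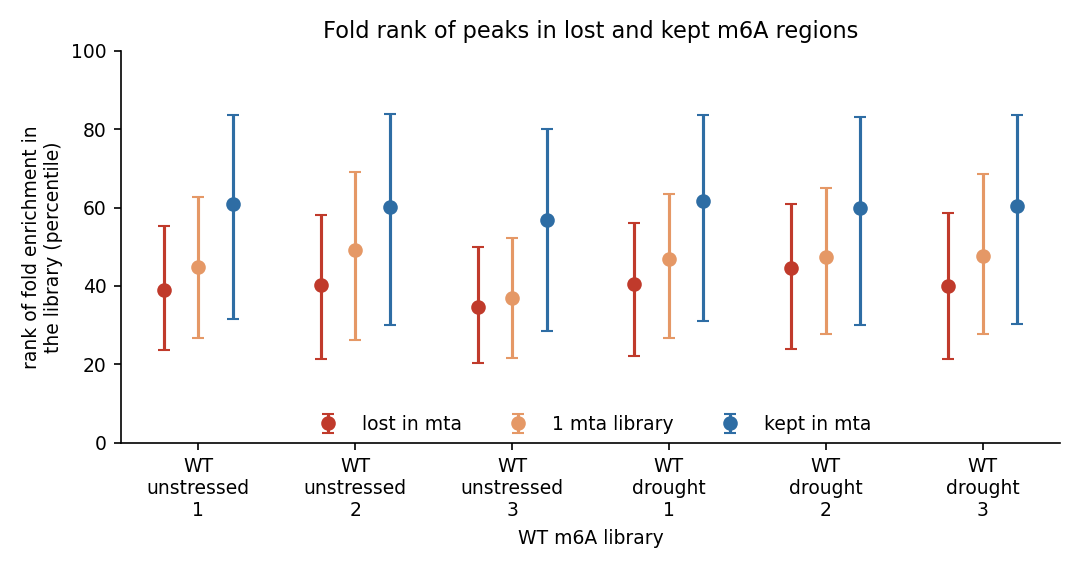
Percentile of the fold enrichment within each WT library's own peak list (y axis, 0 to 100) for lost regions, near misses and kept regions, by library (x axis), with medians and interquartile ranges. Lost regions have medians between 34.7 and 44.6, below the medians of 56.9 to 61.6 of the kept regions in all 6 libraries.

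Within WT, 125 lost regions were held by all 6 libraries, 283 by 5 and 121 by 4. WT unstressed replicate 3, whose list held 8269 peaks against 11641 to 12228 in the other WT lists, held 214 of the 529 (40.5%), and the others held 435 to 519. It was the single WT library without a peak at 207 of them. The number of members depends on this: without WT unstressed replicate 1 the same rule gave 205 regions and without replicate 2 it gave 175, against 401 to 480 without another WT library. The mta lists held 11070, 8374 and 12145 peaks in unstressed leaves and 8764, 7746 and 10357 in drought. Another 538 regions met the WT rule but were held by exactly 1 mta library, and of these near misses 236 were held by mta unstressed replicate 3 and 169 by mta drought replicate 3. Regions of both WT regimes were held by 0, 1, 2, 3, 4, 5 and 6 mta libraries in 529, 538, 620, 763, 871, 1296 and 5001 cases, so the members are the low end of a graded series. The reverse pattern, at least 2 libraries of both mta groups and 0 WT libraries, was seen in 127 of 7519 regions (1.69%). The nearest mta peak on the same strand was a median of 3601 bases away from a lost region, within 100 bases for 1 of them (0.189%) and within 500 bases for 35 (6.62%).

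Lost regions were narrower than kept ones, with median widths of 175 and 262 bases against 194 over all regions. A width spans all merged peaks, though, and kept regions also merge mta peaks, so the rule itself makes kept regions wider. Among lost regions the median width was 162, 175 and 195 bases for those held by 4, 5 and 6 WT libraries. Lost regions sat where m6A peaks of plants usually sit. Of 529, 507 had their summit inside a gene on the same strand, 8 lay only in a gene of the opposite strand and 14 in no annotated gene. Their median position was 91.9% along the gene from start to end, and 447 of 507 (88.2%) lay in the last 20% of the span, against 84.7% of kept and 66.7% of all regions. Only 2 (0.394%) lay in the first 20%, against 238 kept regions (3.60%) and 10.1% of all regions. Near misses had much the same placement, with 90.7% in the last 20%. The distance to the annotated gene end had a median of 205 bases for lost and 218 for kept regions. Positions count along the whole gene span with introns, and whether a summit falls in an exon, an intron or an untranslated region was not analysed here. The lost share of the WT regions was 5.79%, 4.49%, 5.54%, 5.50% and 5.76% on chromosomes 1 to 5.

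**Figure D2:**
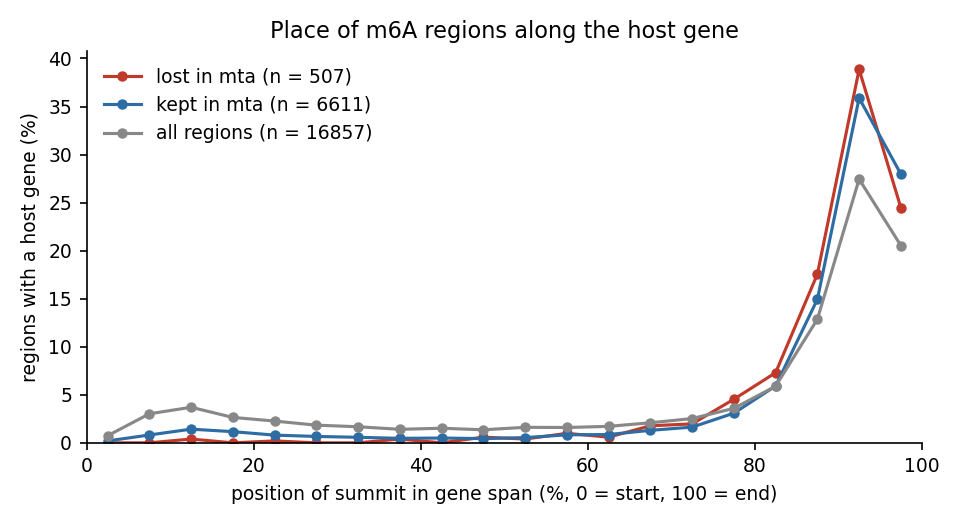
Share of regions with a summit in each 5% step of the gene span (y axis, percent of regions within a gene) against the position from gene start to gene end (x axis, percent), for lost, kept and all regions. The lost regions pile up near the gene end, with 88.2% in the last 20% and 0.394% in the first 20%.

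The 10 lost regions with the highest median fold among those held by all 6 WT libraries had medians from 7.39 to 8.59. The highest, in RABA1f (AT5G60860), a small GTPase of the Rab family that directs vesicle traffic, spanned chr5:24485618-24485693 on the plus strand, with its summit 47 bases from the gene end. Its folds were 8.59, 8.58 and 6.04 in WT unstressed and 8.63, 7.93 and 8.64 in WT drought. The region of the transcription factor gene WRKY4 at chr1:4779050-4779259 had folds of 7.45, 10.2 and 9.19 unstressed and 8.74, 7.53 and 4.48 in drought. WRKY4 also carried a kept region, so the mutant had a peak elsewhere on the same transcript. The region of IRE1-1, the sensor that splices a transcription factor mRNA under stress of the endoplasmic reticulum, lay at chr5:8319759-8319881 with folds of 6.72, 8.10 and 7.70 unstressed and 7.85, 8.39 and 6.76 in drought. The others were in SHM6, a serine hydroxymethyltransferase, in AT3G03180, AT3G28460, AT1G02020, AT5G10370 and AT3G17750, and at chr1:19497489-19497624 outside any gene on its strand. Of these host genes, RABA1f mRNA differed between mta and WT by 0.11 ± 0.19 (adjusted p = 0.754) unstressed and -0.40 ± 0.23 (adjusted p = 0.153) in drought. IRE1-1 mRNA differed by 0.06 ± 0.18 (adjusted p = 0.864) and -0.10 ± 0.17 (adjusted p = 0.661). In unstressed leaves none of the 9 hosts passed the test. In drought 4 fell. AT1G02020 went from 31.9, 32.1 and 34.7 CPM in WT to 12.6, 16.0 and 14.2 in mta (-1.21 ± 0.16, adjusted p = 1.04e-06), and WRKY4 fell by 0.59 ± 0.10 (adjusted p = 5.79e-05). AT5G10370 fell by 1.02 ± 0.22 (adjusted p = 0.0004), or by 0.48 with the smooth trend of the differences along the gene span removed. AT3G17750 fell by 0.63 ± 0.12 (adjusted p = 0.000175), and by 0.24 with that trend removed, where it no longer passed (adjusted p = 0.102).

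At the edge of the rule, the strongest members held by only 4 WT libraries were in LPPepsilon1 at a median fold of 8.27, FOLB2 at 7.53 and RGP5 at 7.42. The strongest near misses were in AT1G12450 at a median WT fold of 10.7, with 1 mta drought peak at a fold of 7.85, in AT3G23300 at 10.5 with 1 mta drought peak at 7.26, and in AT5G63080 at 10.0 with 1 mta unstressed peak at 6.06. The near misses at the edge thus had folds as high as the strongest members.

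The 507 regions inside genes belonged to 506 genes, all annotated as protein coding, of which 213 have a symbol in the annotation. In 356 of them the lost region was the gene's only region. A kept region was present on 35 (6.92%), and 366 (72.3%) had no mta peak anywhere on the gene. NLP7, a transcription factor of the nitrate response, was the 1 gene with 2 lost regions, at chr4:12483421-12483561 and chr4:12483708-12483952. The word kinase stood in the symbol or synonyms of 14 hosts (2.77%), against 2.98% of the hosts of kept regions and 2.76% of all genes tested. Among them were MPK1, MPK2, MPK5, MKK5 and MAPKKK6, members of the mitogen-activated protein kinase cascades that relay stress signals, and also RACK1B_AT, a scaffold protein that is no kinase. Words for a transcription factor or DNA-binding protein stood with 7 (1.38%), WRKY4, WRKY26, NAC053, MYB33, LZF1, HAT14 and ZFN3, against 1.28% of the hosts of kept regions and 2.20% of all genes tested. Words for a ribosomal or photosystem protein stood with 0 hosts, against 0.507% and 0.348% of the hosts of kept regions and 0.374% and 0.436% of all genes tested. Words also miss genes: the transcription factor NLP7 is not among the 7, nor the receptor-like kinase ALE2 among the 14. The shares are thus of words and not of functions.

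Of the m6A machinery written down for this comparison, the annotation gives the same symbol for 3 of 6 writers, 12 of 12 readers and 0 of 5 erasers. MTA alone, the mutated gene, carried a lost region. The readers held 11 genes with a region, 6 with a kept one and 0 with a lost one. ECT2 carried a near miss, held by 5 WT libraries and 1 mta library. So did the writer HAKAI (AT5G01160), 1 of the genes without the same symbol in the annotation. In mRNA, 1 reader of 12 rose in unstressed mta leaves, where 8.5 percent of all genes were called higher. It was ECT2, by 0.48 ± 0.11 (adjusted p = 0.00428). In drought 5 of 12 fell and 0 rose, beside 26.1 percent of all genes lower and 26.6 percent higher, among them ECT8 by 0.91 (adjusted p = 6.17e-08) and ECT3 by 0.72 (adjusted p = 2.34e-06). Writers and erasers, taken by locus, went both ways in drought mRNA. Beside MTA, FIO1 fell by 1.18 (adjusted p = 0.000594) and HAKAI by 0.996 (adjusted p = 7.16e-06). FIP37 rose by 0.70 (adjusted p = 0.000255), ALKBH9C by 1.03 (adjusted p = 5.45e-05) and ALKBH10B by 0.32 (adjusted p = 0.0294). MTB, VIR and ALKBH9B did not pass, and ALKBH9A and ALKBH10A were not tested.

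In unstressed leaves most host genes did not pass the test for a change in mRNA. Of 506 host genes, 504 were tested, and 39 rose and 27 fell in mta against WT (66, or 13.1%). Over all 17666 genes tested 17.8 percent were called (adjusted p under 0.05), 8.5 percent higher and 9.28 percent lower, a higher share than among the hosts. Their median difference was 0.01 (all genes -0.01), and 892 of 6301 hosts of kept regions (14.2%) were called, 4.40% higher and 9.76% lower. The 95% interval of the difference, taken from the SE, excluded a 2-fold fall for 479 of the 504 hosts. The share over all genes was not taken for this regime alone, so this count is not set against a background. For both regimes together the shares were 76.8% of hosts, 73.5% of all genes and 81.6% of hosts of kept regions. The count was 37 without WT unstressed mRNA replicate 1, 41 without mta unstressed mRNA replicate 3 and 43 with DESeq2, which called 14.2 percent of all genes. Here and below, counts under other settings cover hosts, mostly without the share of all genes under that setting. A shift common to all genes was not told apart from one of the hosts there. A transcript with less mRNA in mta may also yield fewer peak calls there. Changes in host mRNA, here and below, may thus not be independent of membership, and this link was not tested.

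ARGAH2 and DMR6 rose most. ARGAH2 (AT4G08870), an arginase that splits arginine into ornithine and urea, stood at 54.4, 61.7 and 44.1 CPM in WT unstressed and at 225, 257 and 243 in mta unstressed. DMR6 (AT5G24530), an oxygenase that hydroxylates salicylic acid and restrains immunity, went from 63.6, 73.1 and 72.8 to 272, 262 and 269. Both sets of libraries were wholly apart, with log2 differences of 2.14 ± 0.13 (adjusted p = 1.06e-10) and 1.95 ± 0.099 (adjusted p = 3.42e-12). The region of ARGAH2, chr4:5646549-5646668, and that of DMR6, chr5:8383084-8383308, were each held by all 6 WT libraries. AAC3, an ADP/ATP carrier of mitochondria, rose by 1.01 ± 0.12 (adjusted p = 2.59e-06), from 20.8, 23.7 and 19.6 CPM to 41.6, 50.2 and 40.9. WR3, a partner of nitrate transporters, rose by 0.92 ± 0.14 (adjusted p = 6.17e-05), and the unnamed AT1G80130 by 0.98 ± 0.11 (adjusted p = 9.25e-07).

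The fall was led by AT5G46910 at -1.39 ± 0.18 (adjusted p = 4.82e-06), MTA, AT1G15890, NADK1 and ACA1. NADK1, an NAD kinase, stood at 68.2, 66.8 and 67.2 CPM in WT and 33.1, 33.8 and 29.3 in mta (-1.08 ± 0.11, adjusted p = 1.23e-07). ACA1, a calcium pump, stood at 311, 310 and 323 in WT and 173, 135 and 142 in mta (-1.07 ± 0.11, adjusted p = 4.59e-07). In both genes every mta library lay below every WT library. The genes ACA1 and NADK1 each overlap a gene of the opposite strand.

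In drought the hosts moved far more, as did all genes. In mta against WT 115 hosts rose and 150 fell, 265 of 504 (52.6%), beside 52.7 percent of all genes (26.6 percent higher, 26.1 percent lower). Hosts of kept regions were at 56.0%, with 18.6% higher and 37.3% lower. The median difference of the hosts was -0.05, against 0.01 over all genes and -0.14 over hosts of kept regions. Over both regimes, 221 hosts (43.8%) were called in drought only, 22 (4.37%) in unstressed leaves only, 44 (8.73%) in both and 217 (43.1%) in neither, beside 40.2, 5.26, 12.5 and 42.1 percent of all genes. The same direction in both was seen for 29 higher (5.75%) and 7 lower genes (1.39%), beside 5.8 and 3.36 percent of all genes, and 334 hosts (66.3%) were lower in neither regime, against 68.0% of all genes and 57.9% of hosts of kept regions. The 95% interval was above a 2-fold fall in both regimes for 387 hosts (76.8%), against 73.5% of all genes and 81.6% of hosts of kept regions. The spans of the 150 lower hosts had a median of 3331.5 bases and those of the 115 higher ones 2248, against 2332 for those not called. With the smooth trend of the differences along the span removed 107 rose and 164 fell.

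**Figure D3:**
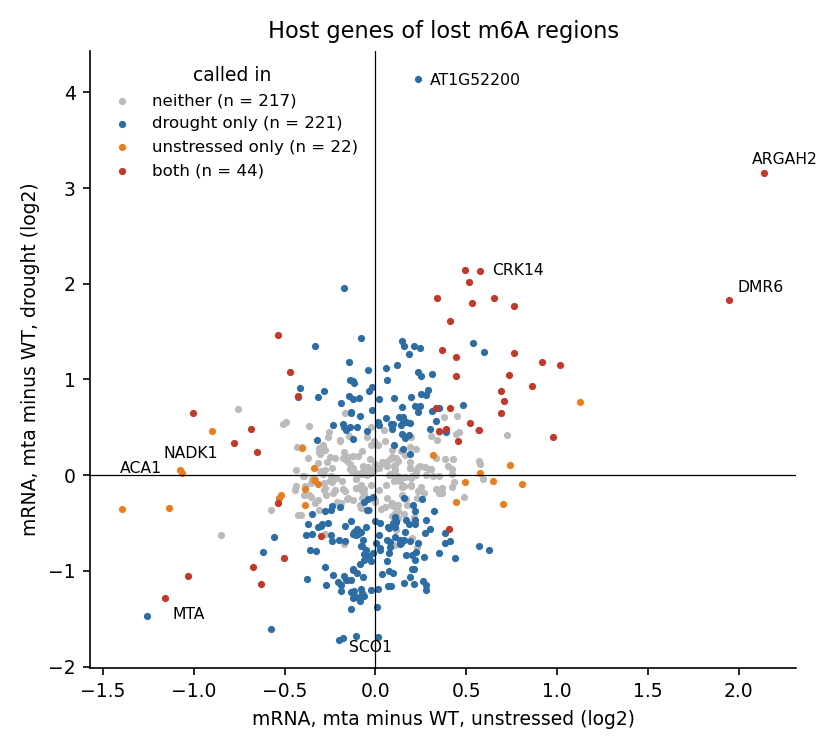
log2 difference in mRNA between mta and WT in drought (y axis) against that in unstressed leaves (x axis) for the 504 tested hosts of lost regions, coloured by the regimes in which they were called. Of these, 217 were called in neither regime and 44 in both, and the spread is wider on the drought axis.

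ARGAH2 again rose, by 3.16 ± 0.16 (adjusted p = 2.29e-13), from 13.4, 8.24 and 15.3 CPM in WT drought to 105, 119 and 112 in mta drought, with the groups far apart. AT1G52200 rose by 4.14 ± 0.27 (adjusted p = 3.27e-11), from 1.14, 2.20 and 3.61 CPM to 36.9, 49.5 and 38.4. CRK14, a cysteine-rich receptor-like kinase, rose by 2.14 ± 0.10 (adjusted p = 1.84e-13). LHT1, a carrier of amino acids, rose by 1.85 ± 0.098 (adjusted p = 7.68e-13), from 85.9, 73.0 and 82.1 CPM to 281, 272 and 316. In these 4 genes every mta library was above every WT library. SCO1, an elongation factor of plastid translation, fell from 130, 133 and 133 CPM to 33.4, 40.2 and 46.5 (-1.72 ± 0.11, adjusted p = 3.29e-11). DBE1, a debranching enzyme of starch, fell by 1.70 ± 0.17 (adjusted p = 3.03e-08), and GIL1, which acts in light-controlled gravitropism, fell by 1.68 ± 0.15 (adjusted p = 3.56e-09). FADA, the desaturase of plastid phosphatidylglycerol, fell by 1.61 ± 0.24 (adjusted p = 8.01e-06), and ALE2, a receptor-like kinase of the epidermis, by 1.69 ± 0.31 (adjusted p = 7.79e-05).

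**Figure D4:**
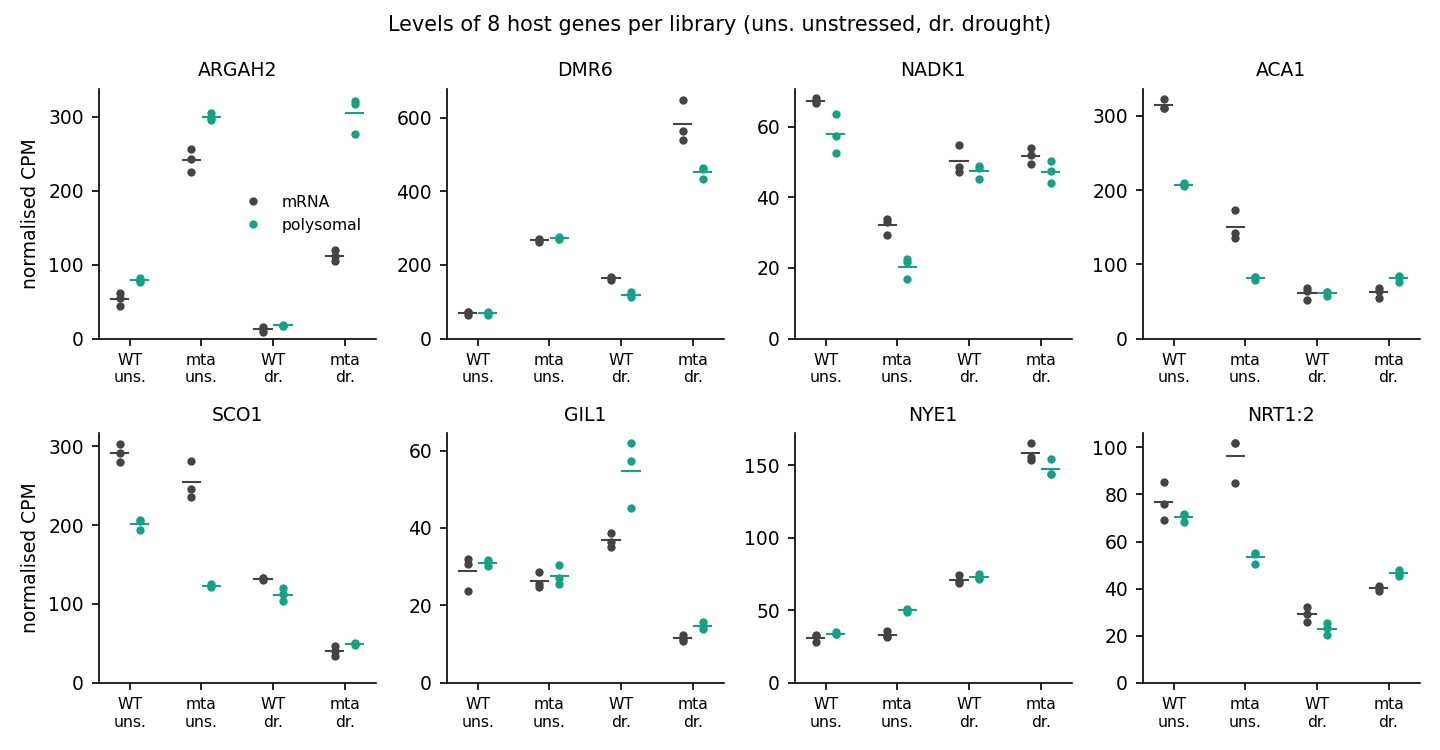
mRNA (dark) and polysomal (green) levels in CPM (y axis, linear, from 0) for 8 host genes in the 4 groups (x axis), with a point for each library and a line at the group mean. In mRNA, ARGAH2 stands between 105 and 119 CPM in the 3 mta drought libraries and between 8.24 and 15.3 in WT drought.

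Genes of defence, chlorophyll loss and the activated methyl cycle were looked at among the hosts because of what they do, and were chosen after their values were seen. The lost regions of NYE1, ADR1, SLAH3 and ACD1 had median WT folds of 6.03, 5.35, 6.63 and 4.83. Those of NPR1, MKK5 and CAT2 stood at 3.91, 3.90 and 2.97, against a median of 5.16 over all lost regions. The region of NPR1 was held by only 4 WT libraries. NYE1, which removes magnesium from chlorophyll as leaves yellow, stood at 68.6, 70.3 and 74.6 CPM in WT drought and 154, 156 and 165 in mta drought (1.15 ± 0.094, adjusted p = 1.03e-09). In unstressed leaves it was at 32.0, 28.1 and 32.9 in WT and 32.1, 31.9 and 35.4 in mta (0.12 ± 0.11, adjusted p = 0.533). ACD1, which acts later in the same breakdown, went the other way in drought, from 471, 484 and 451 CPM to 340, 319 and 345 (-0.48 ± 0.084, adjusted p = 4.83e-05). NPR1, a receptor of salicylic acid, rose in drought by 1.00 ± 0.14 (adjusted p = 2.18e-06), from 26.4, 42.8 and 28.9 CPM to 59.9, 66.1 and 68.3. ADR1, an immune receptor of the helper kind, rose by 0.69 ± 0.14 unstressed (adjusted p = 0.00116) and by 0.88 ± 0.14 in drought (adjusted p = 2.07e-05). MKK5, a kinase of the immune MAP kinase cascade, fell by 0.43 ± 0.12 unstressed (adjusted p = 0.0199) and rose by 0.83 ± 0.12 in drought (adjusted p = 6.45e-06). The unstressed fall of MKK5 no longer passed without WT unstressed mRNA replicate 1, 2 or 3 or mta unstressed mRNA replicate 2 or 3 (adjusted p from 0.0536 to 0.0716). CAT2, a catalase of peroxisomes, fell in drought from 581, 569 and 486 CPM to 224, 223 and 260 (-1.21 ± 0.12, adjusted p = 2.96e-08). SLAH3, an anion channel of guard cells, fell unstressed by 0.51 ± 0.17 (adjusted p = 0.0424), a call lost under 10 of 17 other settings, and in drought by 0.87 ± 0.14 (adjusted p = 1.73e-05), or by 0.54 with the trend along the span removed (adjusted p = 0.00198).

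Of the methyl cycle, also chosen after the values were seen, SAM-2, which makes S-adenosylmethionine, the methyl donor, rose in unstressed leaves by 0.65 ± 0.091 (adjusted p = 1.92e-05), from 278, 236 and 246 CPM to 423, 404 and 364. MTO1, an enzyme of methionine synthesis, fell by 0.32 ± 0.086 (adjusted p = 0.0126), from 353, 335 and 378 to 296, 271 and 288. Without WT unstressed mRNA replicate 3 it no longer passed (-0.23, adjusted p = 0.075). The lost regions of SAM-2 and MTO1 had median WT folds of 3.87 and 2.38, and that of SAM-2 was held by only 4 WT libraries. ADK1, an adenosine kinase that clears the by-product of methylation, differed by 0.17 ± 0.083 unstressed (adjusted p = 0.18) and fell by 0.47 ± 0.082 in drought (adjusted p = 4.52e-05). Of the stress kinases, with MPK2 and NAC053 likewise chosen after the values were seen, MPK5 fell by 1.01 ± 0.17 unstressed (adjusted p = 0.000134) and rose by 0.64 ± 0.17 in drought (adjusted p = 0.00291). MPK2 rose in drought by 0.75 ± 0.13 (adjusted p = 5.97e-05). The transcription factor NAC053 rose in both regimes, by 0.44 ± 0.14 (adjusted p = 0.0307) and 1.23 ± 0.12 (adjusted p = 2.14e-08).

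Drought moved most hosts within either genotype. In WT 152 rose and 138 fell in drought against unstressed leaves, 290 of 504 (57.5%) beside 67.9 percent of all genes, 32.6 percent higher and 35.3 percent lower. In mta 166 rose and 171 fell (66.9% beside 70.3 percent, 35.1 percent higher and 35.3 percent lower). SKP2A, an F-box protein of the cell cycle, rose by 2.42 ± 0.12 in WT (adjusted p = 4.87e-14) and 2.33 ± 0.12 in mta (adjusted p = 1.2e-13). PDCB4, a callose-binding protein of plasmodesmata, rose by 2.46 ± 0.12 in WT (adjusted p = 4.02e-14), from 92.2, 73.5 and 67.9 CPM to 426, 479 and 403. CESA2, a cellulose synthase, fell by 2.41 ± 0.18 (adjusted p = 9.49e-11) in WT and 3.21 ± 0.20 (adjusted p = 3.87e-12) in mta. The plasmodesmal glucanase BG_PPAP fell by 2.65 ± 0.20 and 3.10 ± 0.21 (adjusted p = 7.91e-11 and 1.92e-11).

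The effect of the genotype on mRNA differed between the regimes for 196 hosts, 87 with a higher and 109 with a lower effect in drought than in unstressed leaves (38.9% beside 37.6 percent of all genes, 19.6 percent higher and 18.0 percent lower). Hosts of kept regions were at 41.4%. This interaction, the genotype difference in drought minus the genotype difference unstressed, was tested in the same model. The median spans were 3727 bases for the 109 and 2271 for the 87. With the trend along the span removed 71 were higher and 110 lower.

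Polysome association is the polysomal minus the mRNA level on the log2 scale, and the uncapped share is GMUCT minus mRNA. Each is taken relative to the same mRNA libraries, and mRNA values that shift on their own shift both measures the same way. In unstressed leaves 54 of 505 tested hosts (10.7%) changed in polysome association in mta, 10 higher and 44 lower. Over all 20392 genes 8.26 percent were called, 2.37 percent higher and 5.89 percent lower, and 8.28% of the hosts of kept regions were lower. The median of the hosts was -0.13, against -0.04 over all genes and -0.08 over hosts of kept regions. The host median was -0.08 with RLE size factors (all genes 0.01) and -0.05 without mta unstressed mRNA replicate 1 (all genes 0.01), and 26 hosts were lower without WT unstressed polysomal replicate 1.

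Among the lower hosts THIC, an enzyme of thiamine synthesis that was chosen after its values were seen, fell in polysome association by 0.55 ± 0.086 (adjusted p = 5.42e-05). Its polysomal level was 300, 296 and 291 CPM in WT unstressed and 209, 209 and 216 in mta, while its mRNA was 451, 388 and 425 and 440, 466 and 425. In drought THIC rose by 0.40 ± 0.087 (adjusted p = 0.00143), but by 0.26 with the trend along the span removed, where it no longer passed (adjusted p = 0.0582). NRT1:2, a nitrate transporter that also carries abscisic acid, fell by 0.76 ± 0.13 (adjusted p = 0.000185), with polysomal levels of 68.2, 71.8 and 71.4 in WT and 54.8, 55.0 and 50.5 in mta. In drought it rose by 0.60 ± 0.15 (adjusted p = 0.00449). LSH4, a protein of organ boundaries, rose most, by 1.08 ± 0.19 (adjusted p = 0.000269), from polysomal levels of 14.9, 12.5 and 13.8 CPM to 26.9 and 28.1 in mta replicates 1 and 3, with replicate 2 higher still, and with mRNA at 31.1, 31.0 and 40.6 in WT and 33.9, 34.6 and 28.4 in mta. NYE1 rose by 0.44 ± 0.11 (adjusted p = 0.0132), with polysomal levels of 33.3, 34.8 and 33.9 in WT and 50.5, 50.7 and 49.2 in mta. Without WT unstressed mRNA replicate 1 the call of NYE1 was lost (0.40, adjusted p = 0.083). In LSH4 and NYE1 all mta polysomal libraries lay above all WT ones. LysoPL2, a lysophospholipase, rose by 0.69 ± 0.14 (adjusted p = 0.00103). AT2G38820 fell by 0.91 ± 0.16 (adjusted p = 0.000179).

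In drought 56 of 505 hosts rose and 45 fell in polysome association (20.0%), beside 16.8 percent of all genes (8.72 percent higher and 8.03 percent lower) and 23.6% of the hosts of kept regions. With RLE size factors 65 were higher and 30 lower, and the shares of all genes under that setting are not given here. In all, 9 hosts were lower (1.78%) and 2 higher (0.396%) in both regimes, beside 1.37 and 0.623 percent of all genes. The lower hosts were 29 without WT drought mRNA replicate 3 or mta drought mRNA replicate 1. SAM-2 rose by 1.00 ± 0.097 (adjusted p = 1.34e-08): its polysomal level was 234, 235 and 224 CPM in WT drought and 448, 446 and 397 in mta drought, while mRNA stood at 364, 394 and 355 and at 356, 343 and 370. ARGAH2 rose by 1.00 ± 0.17 (adjusted p = 7.98e-05), on top of its higher mRNA. MTA fell by 0.99 ± 0.24 (adjusted p = 0.00489), at 26.3, 28.9 and 30.2 CPM in WT polysomes and 5.37, 6.64 and 5.10 in mta. ALE2 and AT5G10370 rose by 1.38 ± 0.34 and 1.20 ± 0.28 (adjusted p = 0.00466 and 0.00292). AT1G72030 fell by 1.19 ± 0.26 (adjusted p = 0.00169) and AT4G25690 by 1.02 ± 0.15 (adjusted p = 1.3e-05). NLP7, the gene with 2 lost regions, had an mRNA that fell by 0.65 ± 0.12 in drought (adjusted p = 8.15e-05) and by 0.33 with the trend along the span removed (adjusted p = 0.00845), from 98.7, 96.7 and 83.4 CPM to 54.6, 62.9 and 60.0, and its polysome association rose by 0.45 ± 0.14 (adjusted p = 0.0228). The rising hosts had a median span of 3295.5 bases and the falling ones 2001. With the trend along the span removed 48 rose and 27 fell. NLP7 no longer passed then (0.26, adjusted p = 0.185), nor without WT drought mRNA replicate 1 (adjusted p = 0.0655) or 2 (adjusted p = 0.0524) or mta drought mRNA replicate 1 (adjusted p = 0.0689), at 0.41 to 0.43.

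The genotype effect on polysome association differed between regimes for 75 hosts (14.9% beside 9.59 percent of all genes), 56 with a higher and 19 with a lower effect in drought, against 6.79 and 2.8 percent of all genes. Hosts of kept regions were at 13.1%. Without WT unstressed mRNA replicate 2 the count was 48, and with the trend along the gene span removed it was 42. The higher ones were 33 to 36 without replicate 1 or 2 of WT drought mRNA or replicate 1 of mta unstressed or mta drought mRNA. The spans of the 56 had a median of 3606 bases against 2497 for hosts not called. NRT1:2 (1.36 ± 0.20, adjusted p = 2.14e-05) and ARGAH2 (1.20 ± 0.21, adjusted p = 0.000263) were among the 56.

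In unstressed leaves few hosts passed the test for uncapped share. Of 505 hosts, 2 were lower and 0 higher (0.396% beside 0.35 percent of all genes, 0.183 percent lower and 0.167 percent higher), PnsB2, a subunit of the plastid NDH complex, at -0.98 ± 0.21 (adjusted p = 0.0236) and AT2G11225 at -0.78 ± 0.17 (adjusted p = 0.0349). At an unadjusted p under 0.05 there were 73 hosts, beside 10.8 percent of all genes, and DESeq2 called 5 of 358 hosts (1.40%) beside 1.99 percent of all genes. The count was 0 without WT unstressed mRNA replicate 1, mta unstressed mRNA replicate 3, WT unstressed GMUCT replicate 1 or 2 or mta unstressed GMUCT replicate 2. It was 1 without WT unstressed mRNA replicate 2 or 3, WT drought mRNA replicate 2 or 3 or mta unstressed GMUCT replicate 3.

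In drought 86 of 505 hosts changed in uncapped share, 41 higher (8.12%) and 45 lower (8.91%), beside 16.5 percent of all genes (7.18 percent higher and 9.28 percent lower) and 23.9% of the hosts of kept regions. The higher ones had a median span of 4006 bases and the lower ones 1786, and with the trend along the span removed 35 were higher and 21 lower. ALE2 rose by 2.14 ± 0.50 (adjusted p = 0.00346), as its mRNA fell, but not past the threshold without mta drought GMUCT replicate 3 (1.69, adjusted p = 0.0798). AT1G62020 rose by 1.65 ± 0.26 (adjusted p = 7.15e-05), with GMUCT levels of 30.7, 27.4 and 21.1 CPM in WT drought and 48.8, 54.1 and 42.4 in mta drought and mRNA of 53.3, 54.4 and 46.0 and 25.0, 27.4 and 34.8. CAT2 rose by 0.97 ± 0.18 (adjusted p = 0.000349), with GMUCT at 409, 408 and 392 in WT and 376, 363 and 293 in mta, a smaller fall than that of its mRNA. TOM22-V, a receptor for import into mitochondria, fell by 1.86 ± 0.32 (adjusted p = 0.00013), from GMUCT levels of 12.2, 15.9 and 18.2 to 3.55, 3.99 and 6.49, while its mRNA was 17.6, 17.3 and 19.8 and 24.8, 23.7 and 21.5. NYE1 fell by 0.54 ± 0.14 (adjusted p = 0.00742). BIG, a very long protein of auxin transport, rose by 1.60 ± 0.32 (adjusted p = 0.000835), and by 0.61 with the trend along the span removed (adjusted p = 0.025). MAPKKK6 rose by 1.29 ± 0.37 (adjusted p = 0.0143), and by 0.67 with that trend removed, where it no longer passed (adjusted p = 0.21). The GMUCT counting ignored strand, per the file headers. Values of genes that overlap another, as MAPKKK6 and CAT2 do and as 165 of the 506 hosts do, can thus hold reads of the neighbour.

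The effect of genotype on the uncapped share differed between regimes for 36 hosts (7.13% beside 7.17 percent of all genes, 3.79 percent higher and 3.38 percent lower), 23 with a higher and 13 with a lower effect in drought. The count was 22 without WT unstressed mRNA replicate 1 or 2, 21 without WT drought mRNA replicate 2, 23 without mta unstressed mRNA replicate 1, and 21 and 22 without mta drought mRNA replicates 1 and 2. Without mta drought GMUCT replicate 3 the balance turned around, with 19 higher and 24 lower. Without WT drought mRNA replicate 1 there were 16 higher and 8 lower, without WT unstressed GMUCT replicate 1 23 and 8, and without replicate 2 of WT drought or mta drought GMUCT 14 and 11 and 15 and 11. With the trend along the span removed it was 14. NFXL1, a zinc finger protein, and MOS1, a regulator of immunity, were higher by 1.57 ± 0.29 (adjusted p = 0.00174) and 1.80 ± 0.36 (adjusted p = 0.0033), and TOM22-V was at -1.78 ± 0.41 (adjusted p = 0.00796). With that trend removed the value of MOS1 was smaller by more than 1.5 times (adjusted p = 0.0255).

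**Figure D5:**
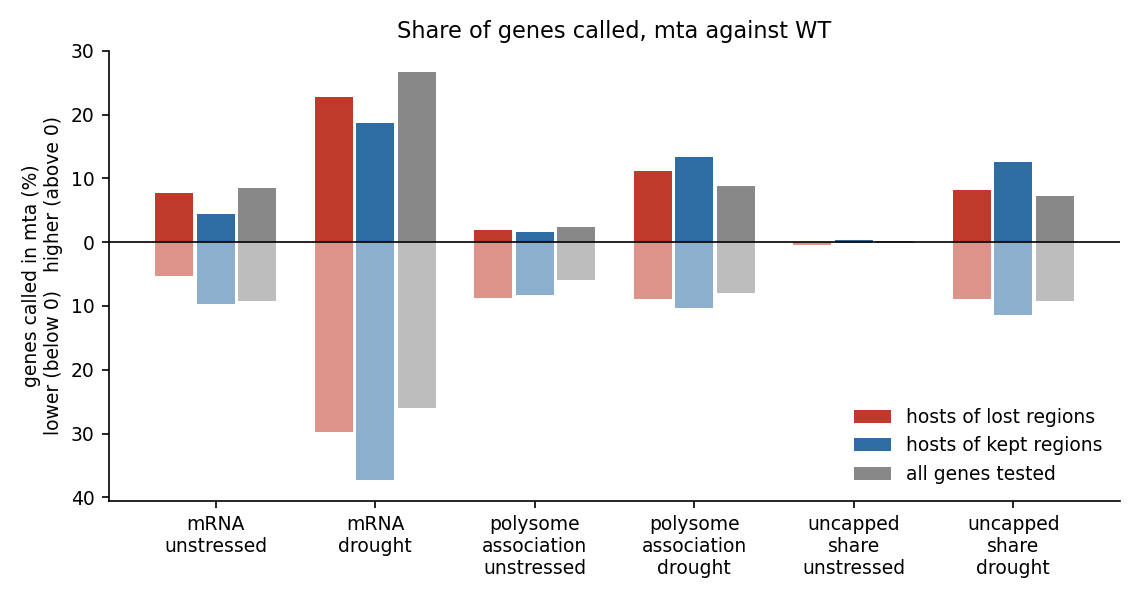
Percent of genes called in mta against WT (y axis, higher above 0 and lower below 0) in 6 comparisons (x axis), for hosts of lost regions, hosts of kept regions and all genes tested. In drought mRNA, the higher and lower bars together come to 52.6% for hosts of lost regions and 52.7 percent for all genes.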

How the data were processed

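The members, the lists and the tests were chosen with earlier results of these data known. The deposited values of 36 libraries are raw counts per gene span of TAIR10, introns included. Per the file headers featureCounts (2.0.1 or 2.0.3) made them. STAR, MACS2, Trim Galore, cutadapt, FastQC, bedtools and SAMtools are named in the submitters' processing notes, without their roles. Low values in the deposited polysomal counts were mostly even, which is what counting each mate separately gives. The authors deposited 1 narrowPeak list per m6A library and strand, holding for each peak a score, a fold enrichment (a ratio), a −log10 p and a −log10 q. The peak caller's background library is not given in the sources used here. Since a call has no interval, the absence of a peak does not measure the absence of m6A.

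Peaks were merged in Python 3.11.15. A region's host is the gene on its strand that holds the summit, the one with more mRNA counts where several do. Counts were tested in R 4.3.3 with edgeR 4.0.16: filterByExpr (minimum count 10, minimum total 15), TMM, a quasi-likelihood F test on group means over the 12 mRNA libraries, or over 24 libraries of 2 assays, and Benjamini-Hochberg adjustment over all genes, with a threshold of 0.05. CPM are relative to the TMM-scaled total. The scripts were tested on simulated data. Alternatives were DESeq2 1.42.0, RLE size factors, no low-count filter, a replicate block, removal of the smooth trend along the gene span, halved polysomal counts, stricter membership and leaving out each library. Same-numbered mRNA libraries of different groups deviated together with correlations of -0.0874 to 0.156, against -0.227 to 0.214 for unlike numbers. Between mRNA and polysomal libraries of a group the ranges were -0.0121 to 0.0325 for same and -0.0265 to 0.0213 for unlike numbers. Between mRNA and GMUCT they were -0.0141 to 0.130 and -0.0979 to 0.0610. The numbers were not used as pairs. 0 columns lacked a sample.

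Genes named are hosts of the 10 strongest regions held by all 6 WT libraries, the gene with the most lost regions, listed m6A genes, MTA, regions at the edge of the rule, and for each comparison up to 5 rising and 5 falling hosts past the threshold with the largest change, a mean log2 CPM of at least 2 and, for mRNA, no overlap between groups. Some were left out for length, and others are said to have been chosen after their values were seen. No genome was used, so no sequence or motif is given.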

Additional observations from a re-analysis of the deposited data

Results flagged for a closer look

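The effect of the genotype differed between drought and unstressed leaves in the named hosts below, tested as the interaction term in edgeR's quasi-likelihood test. Values are the log2 difference in drought minus that in unstressed leaves. In mRNA it was higher in drought for AT1G52200 (3.91), AT2G40270 (2.13), AT3G25610 (2.01), TH9, a thioredoxin (1.68), and MPK5 (1.65), and lower for ALE2 (-1.71), GIL1 (-1.58), DBE1 (-1.52), SCO1 (-1.52) and AT2G17150 (-1.48). For MPK5, mRNA was 31.3, 44.3 and 32.2 CPM in WT unstressed, 18.2, 20.6 and 20.8 in WT drought, 14.4, 18.2 and 21.7 in mta unstressed and 36.4, 28.2 and 28.4 in mta drought, so the order of the genotypes turned around.

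In polysome association it was higher for ALE2 (1.88), AT3G02065 (1.58), AT4G36140 (1.42), NRT1:2 (1.36) and AT2G17150 (1.30), and lower for AT4G25225 (-1.85), AT5G39730 (-1.10), LSH4 (-0.93), AT5G43150 (-0.85) and AT5G20160 (-0.83). Of these, LSH4, AT2G17150 and AT5G43150 no longer passed with the trend along the gene span removed, and over all settings their calls were lost under 18, 9 and 2 of 30.

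In uncapped share it was higher for ALE2 (2.19), MOS1 (1.80), AT1G27700 (1.73), AT1G62020 (1.59) and NFXL1 (1.57), and lower for TOM22-V (-1.78), AT1G06050 (-1.38), AT5G43150 (-1.32), AT1G27330 (-1.31) and CER10, an enzyme of very-long-chain fatty acid synthesis (-1.30). Of these, ALE2, AT1G06050, AT5G43150, AT1G27330 and CER10 no longer passed with that trend removed. The call of AT1G27700 was lost under 13 of 28 other settings, among them the replicate block (adjusted p = 0.0827) and leaving out mta drought GMUCT replicate 3 (1.32, adjusted p = 0.167). Those of AT1G06050 and CER10 were lost under 25 and 21 of 29, and that of ALE2 also without mta drought GMUCT replicate 3.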

How the results depend on the processing

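The number of lost regions was 449 with peaks of −log10 q of at least 5, 506 with an overlap of at least 50 bases, 125 when all 6 WT libraries had to hold the region and 1067 when 1 mta library was allowed. Leaving out each library gave 175 to 766. With hosts of the 125 regions only (121 tested), fewer genes entered, and the calls were 15, 69, 65, 85 and 53 for the mRNA comparisons (mta against WT unstressed and in drought, drought in WT and in mta, interaction), 15, 26 and 23 for polysome association (unstressed, drought, interaction) and 0, 25 and 8 for uncapped share.

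Of 69 counts of hosts under other settings, 51 stayed within 1.5 times. The 69 include the counts for hosts of regions held by all WT libraries. Far fewer hosts were tested there, so those counts were bound to move by more. DESeq2 gave 43 calls in unstressed mRNA and 5 in unstressed uncapped share. Removing the trend along the gene span gave 42 in the interaction of polysome association, and 5, 56 and 14 in uncapped share. Without the low-count filter 48 were higher and 35 lower in drought uncapped share. Beyond the construction of these settings the cause was not tested. The replicate block, which has no support as a pairing in the labels, gave 63, 265, 288, 335 and 193 calls in mRNA, 50, 94 and 65 in polysome association and 4, 91 and 38 in uncapped share.

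Leaving out each library gave 37 to 78, 236 to 274, 267 to 301, 310 to 343 and 174 to 205 calls in mRNA, 36 to 54, 73 to 112 and 48 to 83 in polysome association and 0 to 3, 64 to 95 and 21 to 47 in uncapped share. Of 134 values of named genes, 107 kept their call under every setting run, 27 lost it under at least 1, and 0 changed direction. Total counts were lower in mRNA and GMUCT than in polysomal RNA. Intervals rest on a spread estimate shared by all groups of a model, with 3 libraries per group. The depth of the m6A libraries is unknown.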
